A study of Mus musculus with 4 samples.

Results

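The 47 genes described here encode the machinery that copies DNA in S phase, from origin licensing to the supply of nucleotides and histones. They were chosen by gene symbol from a list of known functions. No measured value entered the rule, but earlier results of these data were known when the list was drawn up. All 47 were found among the 35976 symbols counted in each library. All 47 also passed the filter on low counts, which left 20389 genes. Bulk RNA-seq had been made from CD4 and CD8a double-positive (DP) thymocytes of mouse thymus, sorted as CD24-positive and TCRb-negative. Control mice had the genotype Cxxc1 +/+ with the Lck-cre transgene, and knockout (KO) mice had Cxxc1 F/F, a floxed allele, with the same transgene, so the recombinase was present in both groups. The Lck promoter drives Cre in T-lineage cells, so the gene is removed within that lineage and not in the rest of the thymus. There were 2 libraries per genotype. Ages, sexes and strains are not given in the labels used here. Whether the libraries of a genotype came from different animals is not stated, and the p-values therefore cover only the spread among these 4 samples, part of which may be technical.

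DNA replication starts at origins bound by the origin recognition complex (ORC), where CDC6 and CDT1 load the MCM2 to MCM7 helicase in G1. CDC45 and the GINS complex then activate the helicase, and the replicative polymerases follow it with the sliding clamp PCNA, which the RFC complex loads. Many genes of this machinery are targets of E2F transcription factors and are transcribed around the entry into S phase. In the thymus, cells that have passed beta-selection divide rapidly as they become DP, and most DP cells are then small and no longer dividing. Cxxc1 encodes a protein that binds unmethylated CpG DNA and recruits the SETD1 methyltransferases, which act on lysine 4 of histone H3.

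Assigned counts per library were 12150508 (control 1), 34820446 (control 2), 36243182 (KO 1) and 33544428 (KO 2). The least counted replication gene still had 132, 131, 428 and 325 reads in these libraries, so spread between libraries rather than counting error limits the values. Levels are CPM, reads of a gene scaled to a common library total, with library sizes adjusted by TMM, a normalisation that assumes most genes do not differ. Cxxc1 itself had 111 and 53.5 CPM in control libraries against 35.7 and 39.4 CPM in KO libraries, with a log2 fold change of -1.12 ± 0.34 that did not pass edgeR's quasi-likelihood test (adjusted p = 0.199). Both KO values lay below both control values. The labels do not say which exons are floxed, and reads from exons that remain would still be counted. All 12 DP markers examined were detected in each library, and their summed level was 16737 and 20348 CPM in control libraries against 9454 and 12402 CPM in KO libraries, and Cd4, Cd8a and Dntt fell in the KO (edgeR, adjusted p below 0.05). Cd4, a gene of the sort itself, had 893 and 896 CPM in control libraries against 142 and 277 CPM in KO libraries. The 7 markers of the earlier double-negative (DN) stage summed to 181 and 143 CPM in control libraries against 903 and 517 CPM in KO libraries, and 4 of them (Il2ra, Il7r, Notch3 and Dtx1) rose. Cd44 of the same list lay below both controls in both KO libraries and did not pass the test, at 30.3 and 35.2 CPM in control libraries against 11.7 and 15.003 CPM in KO libraries (-1.30 ± 0.32, edgeR adjusted p = 0.124). Myeloid markers summed to 20.9 and 33.96 CPM in control libraries against 32.7 and 54.3 CPM in KO libraries, and markers of mature single-positive cells to 95.4 and 94.1 CPM and 74.7 and 68.98 CPM. Erythroid markers summed to 8.66 to 14.02 CPM in the controls and 26.2 to 38.03 CPM in the KO libraries, and the 4 globin genes among them were at 0 in both controls. Thymic epithelial markers summed to 5.13 and 7.82 CPM in control libraries against 11.9 and 15.1 CPM in KO libraries. Epcam made up most of the KO sums, at 11.6 and 15.1 CPM, while Krt5, Krt8, Foxn1 and Psmb11 were at or near 0 there and at most 1.60 CPM in the controls. Of the gamma delta T-cell markers Sox13 was examined, with 2.10 and 0 CPM in control libraries against 6.74 and 2.11 CPM in KO libraries. The part of these marker differences in the results below was not tested.

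No replication gene passed the test between genotypes, while their point estimates mostly lay above 0. At an adjusted p of 0.05 (Benjamini-Hochberg), edgeR's quasi-likelihood test called 0 of the 47 genes, against 0.451% of all tested genes (92 genes), and the smallest adjusted p of a member was 0.212. At an unadjusted p below 0.05, 2 members were higher (4.26%) and 0 were lower, against 6.97% and 6.91% of all tested genes. DESeq2 called 0 members in either direction, against 2.21% of tested genes higher and 2.58% lower. The point estimate was above 0 in 40 of 47 members (85.1%), against 47.6% of tested genes. The median log2 fold change, KO over control, was 0.32 over the members and -0.044 over all tested genes, and the members ranged from -0.63 (Rrm2) to 0.86 (Rfc4). A test that misses the threshold does not show that the genotypes had equal levels, since the median standard error of a member's log2 fold change was 0.33. In bulk samples, fewer cells of a type and less RNA per cell cannot be told apart.

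**Figure D1:**
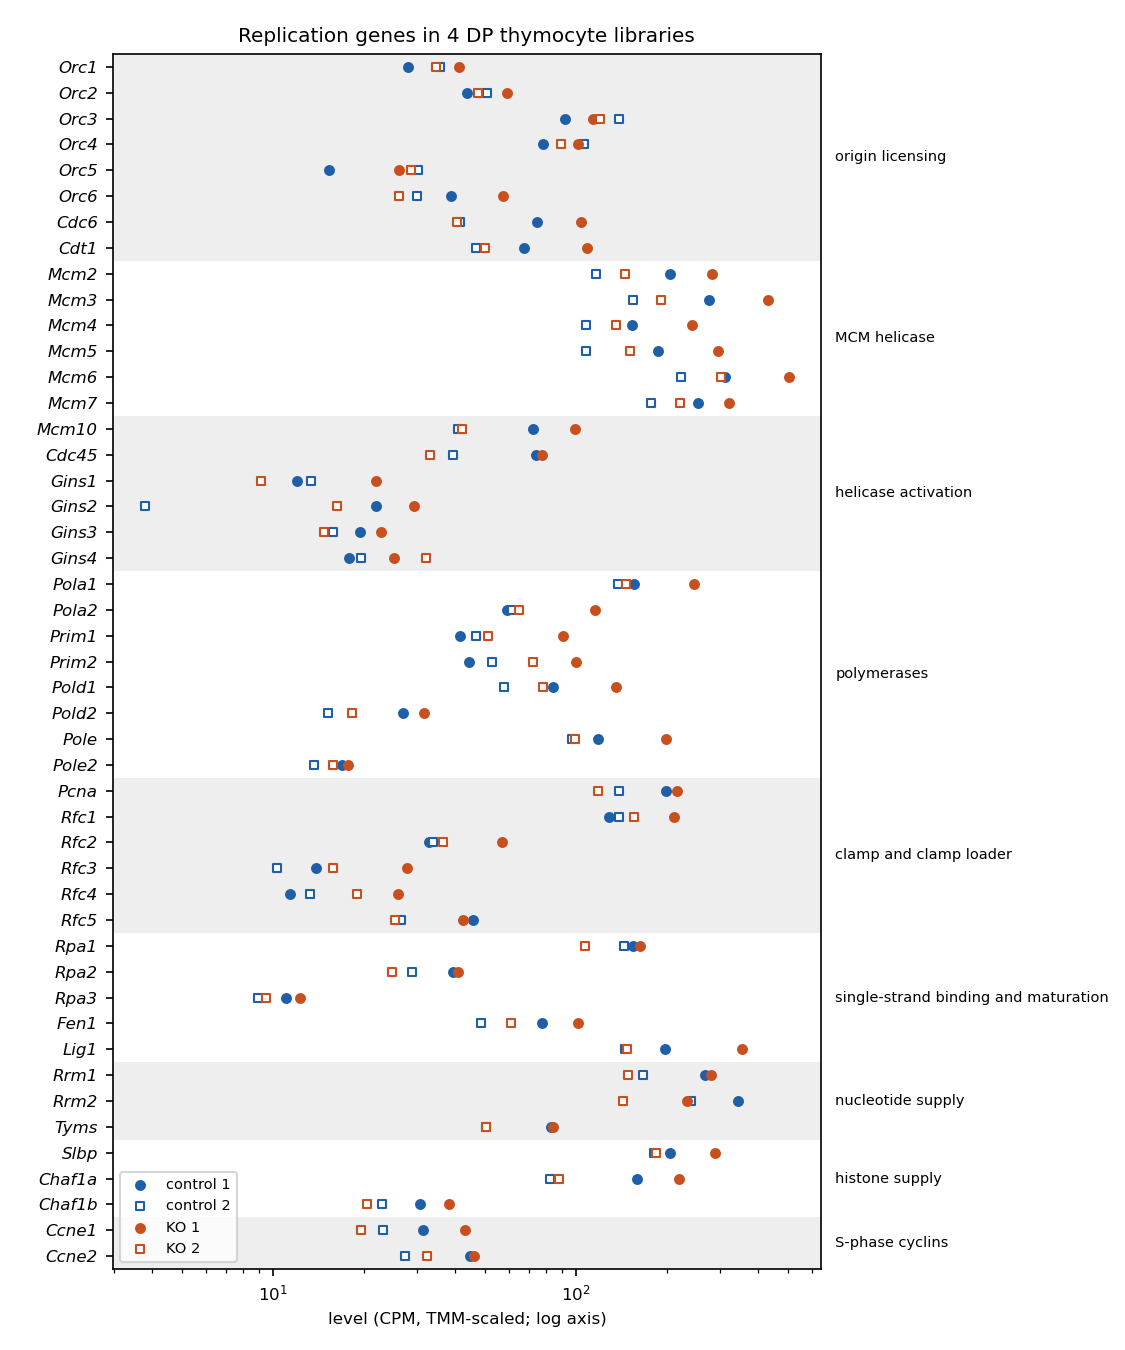
Level of each of the 47 replication genes in the 4 DP libraries, in CPM on a log axis, grouped by role. Blue marks are controls and orange marks KO libraries, filled circles are library 1 and open squares library 2; KO 1 is the rightmost mark in 41 of 47 genes.

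The upward point estimates came mainly with 1 library. KO 1 was the highest of the 4 libraries in 41 of the 47 genes (87.2%), against 25% of tested genes. KO 1 lay above KO 2 in 44 members (93.6%), against 46.1% of tested genes, and control 1 lay above control 2 in 34 members (72.3%), against 49.8%. The median log2 ratio of library 1 to library 2 was 0.75 for KO and 0.44 for control, both larger than the median difference between genotypes. Summed over the 47 genes, the level was 4659 CPM in control 1, 3513 CPM in control 2, 6379 CPM in KO 1 and 3686 CPM in KO 2. KO 2 was therefore below control 1 in this sum, and the genotypes overlapped. KO 1 was also the library with the highest sum of DN markers and the lowest sum of DP markers, whose part in this order was not tested. Both KO libraries lay above both controls in 8 members (17.02%), against 22.8% of tested genes, and below both in 1 (2.13%), against 24%. Without KO 1 the members' median was -0.036, with 21 of 47 point estimates above 0, and without KO 2 it was 0.66. Without control 2 it was 0.18, and without control 1 it was 0.50.

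**Figure D2:**
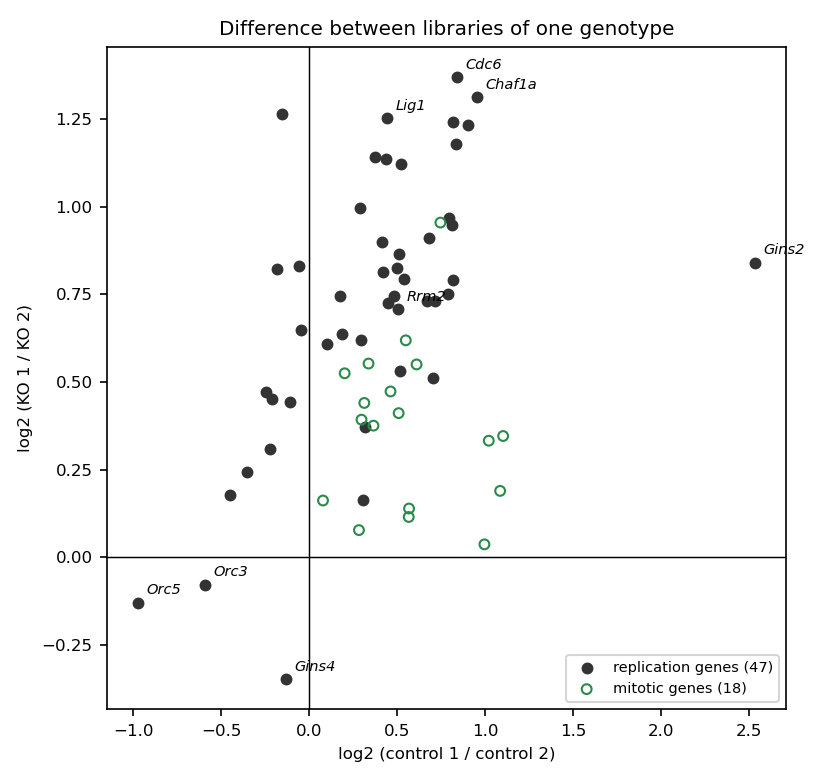
Log2 ratio of library 1 to library 2 of the controls (x axis) and of the KO group (y axis), 1 mark per gene, for the 47 replication genes (filled) and 18 mitotic genes (open). Of the replication genes, 34 lie in the upper right part, where library 1 is the higher of its genotype in both groups, and all 18 mitotic genes lie there too.

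Across the 47 genes, the log2 difference between the control libraries and that between the KO libraries had a Pearson r of 0.58, against 0.33 over 9620 tested genes with at least 5 CPM in every library. Genes of one library share its depth and its cells, so this is a description of 4 libraries and has no test. Orc3, Orc5 and Gins4 were lower in library 1 than in library 2 of both genotypes, and the other 44 members were higher in KO 1. The DP markers had the opposite arrangement, with 0 of 12 higher in control 1 than in control 2 and 1 of 12 higher in KO 1 than in KO 2.

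No origin licensing gene passed the test, with 0 of 8 called and a median log2 fold change of 0.25. Cdt1, which loads the MCM helicase together with Cdc6 and is destroyed once S phase begins, had the largest point estimate of the group; it lies at chr8:122568015-122573130 on GRCm38, the build of all gene positions given here. Its level was 67.6 and 47.02 CPM in the controls, against 109 and 49.98 CPM in KO 1 and KO 2, a log2 fold change of 0.47 ± 0.36 (edgeR, adjusted p = 0.636). KO 1 stood above the other 3 libraries, and KO 2 lay between the controls. Cdc6, its partner in loading, also had KO 1 highest but KO 2 lowest, with 74.6 and 41.6 CPM in control libraries against 104 and 40.4 CPM in KO libraries. The ORC subunit with the highest level, Orc3, had 92.2 and 139 CPM in control libraries against 114 and 120.1 CPM in KO libraries, with a log2 fold change of 0.015 ± 0.25 (edgeR, adjusted p = 0.988). Both KO values of Orc3 lay between the control values. Orc1, the ORC subunit whose level is known to change through the cell cycle, had a log2 fold change of 0.25 ± 0.28, and Orc6 had 0.29 ± 0.38. Orc2, Orc4 and Orc5 had 0.18, 0.052 and 0.26. The 8 adjusted p-values ranged from 0.636 to 0.988.

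The 6 MCM helicase subunits shared an order of libraries that was also that of the summed level of the 47 genes. In every one of them the order was KO 1 highest, control 2 lowest, and control 1 and KO 2 between, with control 1 above KO 2. It was not particular to this role, since Cdt1, Mcm10, Pola1, Pold1, Lig1 and Slbp were among the other members with it. Mcm6 (chr1:128331575-128359705) had the highest level and the largest point estimate, at 311 and 222 CPM in control libraries against 506 and 302 CPM in KO libraries. Its log2 fold change was 0.60 ± 0.30 (edgeR, adjusted p = 0.419), a fold of 1.52, and KO 2 fell just short of control 1. Mcm3 had 275 and 154 CPM in control libraries against 432 and 191 CPM in KO libraries, the widest gap between the KO libraries among the 6. Log2 fold changes of Mcm2, Mcm3, Mcm4, Mcm5 and Mcm7 were 0.41, 0.54, 0.53, 0.60 and 0.33, with standard errors of 0.27 to 0.40. Exons of Ap4m1 and Cops6 cover 13.0% of the exon length of Mcm7. The group median was 0.54, and the summed level was 1383 and 886 CPM in control libraries against 2075 and 1147 CPM in KO libraries. Without KO 1 the log2 fold changes of Mcm2 and Mcm3 were -0.10 and -0.13, and that of Mcm6 was 0.22.

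The factors that switch the loaded helicase on were mixed. Gins2 (chr8:120581266-120589075), a subunit of the GINS complex that joins CDC45 and MCM, had the largest point estimate, at 21.9 and 3.78 CPM in control libraries against 29.3 and 16.4 CPM in KO libraries. The log2 fold change was 0.85 ± 0.68 (edgeR, adjusted p = 0.651), and control 2 stood far below the other 3 libraries. Without control 1 the log2 fold change of Gins2 was 2.59, and without control 2 it was 0.056. Exons of Gse1 cover 70.7% of the annotated exon length of Gins2, and without a stated strand setting reads of these genes cannot be told apart. Gins4 was the member of this group whose genotypes did not overlap, at 17.8 and 19.5 CPM in control libraries against 25.2 and 32.1 CPM in KO libraries (0.62 ± 0.31, edgeR adjusted p = 0.428). It was also the one member of the 47 in which KO 2 was the highest library. Mcm10, which stabilises the active helicase, had 72.1 and 40.9 CPM in control libraries against 99.6 and 42.2 CPM in KO libraries (0.33 ± 0.41, edgeR adjusted p = 0.801). Cdc45 had -0.028 ± 0.42, Gins1 0.29 ± 0.46 and Gins3 0.10 ± 0.36, and 0 of the 6 were called.

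**Figure D3:**
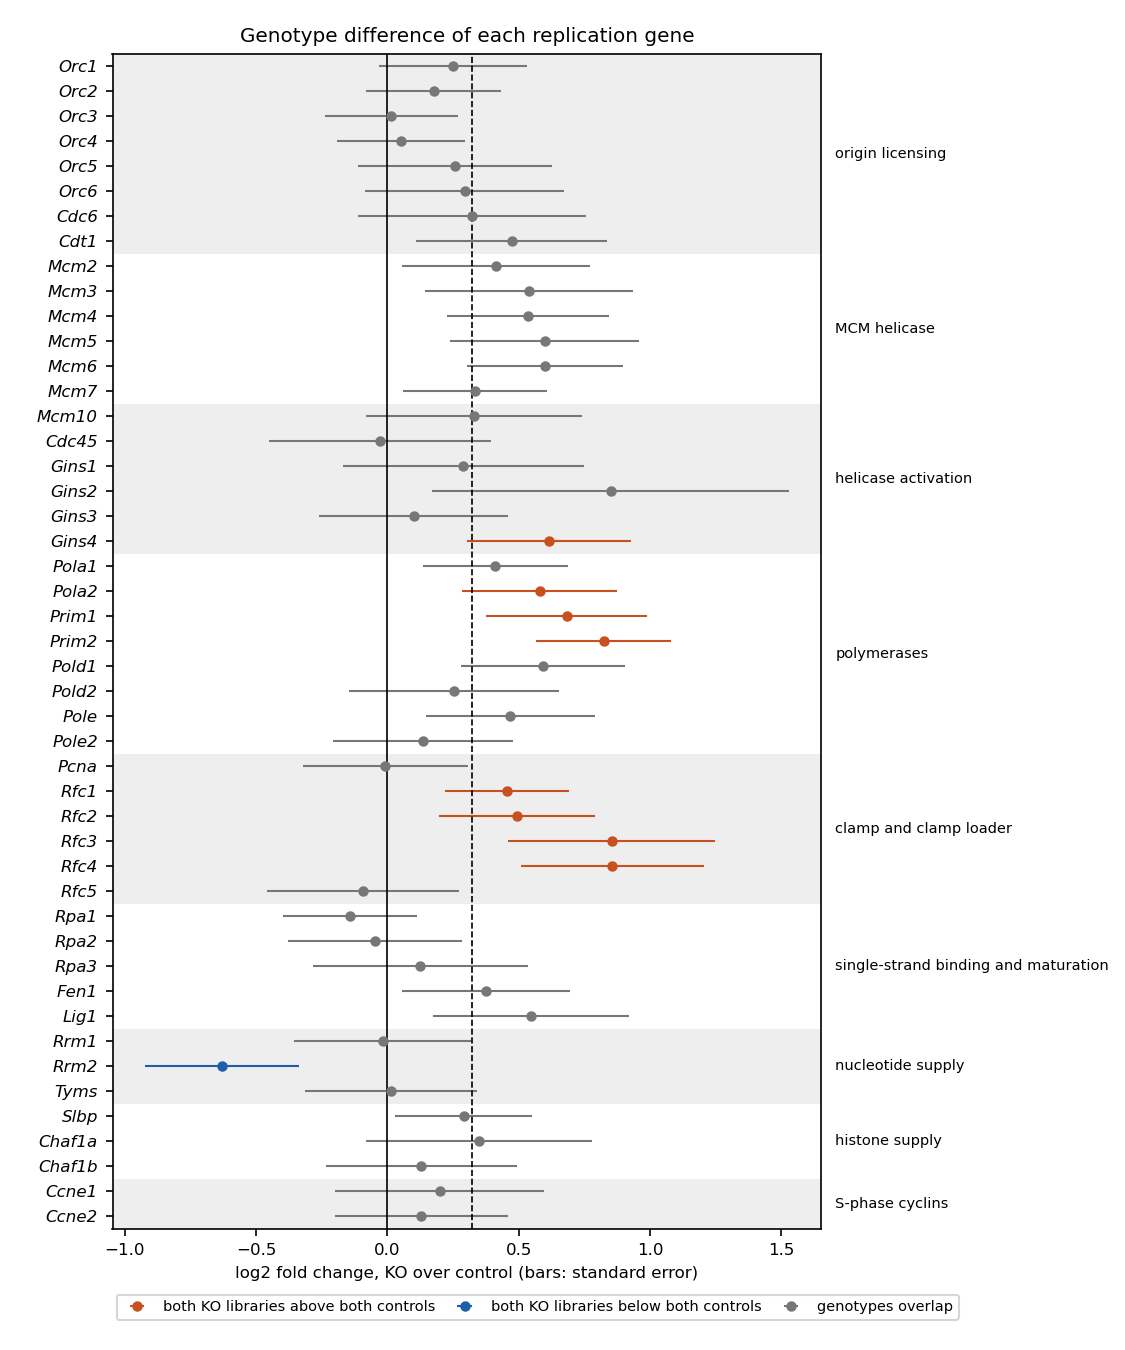
Log2 fold change of each replication gene, KO over control, with its standard error from the edgeR fit; the dashed line is the members' median of 0.32. Orange marks are the 8 genes in which both KO libraries lay above both controls and the blue mark is Rrm2, the 1 gene in which both lay below.

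Polymerase alpha-primase, which makes the RNA-DNA primers that start every new strand, held the member with the smallest p-value. Prim2 (chr1:33453808-33669808), the large primase subunit gene, had 44.6 and 52.7 CPM in control libraries against 100.1 and 72.2 CPM in KO libraries. Both KO libraries lay above both controls, with means of 48.6 ± 5.78 CPM in the controls and 86.2 ± 19.7 CPM in the KO group (SD, n = 2 each), a log2 fold change of 0.82 ± 0.26, a fold of 1.77 (edgeR, unadjusted p = 0.0105, adjusted p = 0.212). Prim1, the catalytic primase subunit, had 41.4 and 46.9 CPM in control libraries against 90.6 and 51.2 CPM in KO libraries (0.68 ± 0.31, edgeR adjusted p = 0.365). Pola2, the accessory subunit, also did not overlap between genotypes, but KO 2 at 65.2 CPM was close to the control values of 59.4 and 61.8 CPM, and KO 1 at 116 CPM stood apart. Pola1, the catalytic polymerase subunit, had 156 and 138 CPM in control libraries against 245 and 146 CPM in KO libraries (0.41 ± 0.28, edgeR adjusted p = 0.574). Without KO 1 the log2 fold changes of Prim2, Prim1, Pola2 and Pola1 were 0.61, 0.25, 0.14 and 0.027. The polymerases that extend the primers overlapped between genotypes. Pold1, the catalytic subunit of the lagging-strand polymerase delta, had 0.59 ± 0.31, and Pole, that of the leading-strand polymerase epsilon, had 0.47 ± 0.32. Their smaller subunits Pold2 and Pole2 had 0.25 ± 0.40 and 0.13 ± 0.34. In all, 0 of 8 polymerase genes were called, and the group median was 0.52.

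The clamp and its loader had different orders of libraries. Pcna, the sliding clamp that tethers the polymerases, had 198 and 139 CPM in control libraries against 216 and 119 CPM in KO libraries. The libraries of each genotype differed far more than the genotypes, whose log2 fold change was -0.0081 ± 0.31 (edgeR, adjusted p = 0.996). Of the 5 clamp-loader genes, 4 (Rfc1, Rfc2, Rfc3 and Rfc4) had both KO libraries above both controls. The share was 22.8% over all tested genes and 17.02% over the 47 members. Rfc4 (chr16:23113948-23127730) had 11.4 and 13.2 CPM in control libraries against 25.9 and 18.9 CPM in KO libraries, a log2 fold change of 0.86 ± 0.35 (edgeR, unadjusted p = 0.0358, adjusted p = 0.322). Exons of Eif4a2 cover 13.4% of the exon length of Rfc4, those of Lat2 19.1% of Rfc2 and those of Wsb2 15.4% of Rfc5, and their reads cannot be told apart without a stated strand setting. Rfc3 had 13.9 and 10.4 CPM in control libraries against 27.8 and 15.8 CPM in KO libraries (0.85 ± 0.39, edgeR adjusted p = 0.381). The large subunit Rfc1 had 0.45 ± 0.24, and Rfc2 had 0.49 ± 0.30 with KO 2 at 36.5 CPM close to the controls at 32.8 and 33.8 CPM. Rfc5 was the exception, at 45.8 and 26.5 CPM in control libraries against 42.4 and 25.2 CPM in KO libraries (-0.091 ± 0.37). Without KO 1 the log2 fold change of Rfc4 was 0.65 and that of Rfc3 was 0.43. None of these 6 genes passed the test.

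RPA, which coats single-stranded DNA at the fork, showed no shift with genotype beyond its spread. Log2 fold changes were -0.14 ± 0.25 for Rpa1, -0.047 ± 0.33 for Rpa2 and 0.13 ± 0.41 for Rpa3. Lig1, the ligase that joins Okazaki fragments, had 197 and 145 CPM in control libraries against 353 and 148 CPM in KO libraries. KO 1 stood far above the other libraries and KO 2 lay beside control 2, with a log2 fold change of 0.55 ± 0.37 (edgeR, adjusted p = 0.579). Fen1, the nuclease that trims the flap before ligation, had 0.37 ± 0.32, and exons of Tmem258 and Gm10143 cover 84.1% of its exon length, so its counts may hold reads of those genes. Of these 5 genes 0 were called.

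Rrm2 was the one replication gene of the 47 (2.13%) in which both KO libraries lay below both controls, against 24% of tested genes. It encodes the small, cell-cycle-regulated subunit of ribonucleotide reductase, the enzyme that makes deoxyribonucleotides. The gene lies at chr12:24708254-24714146. Its level was 342 and 241 CPM in the controls, against 233 and 143 CPM in KO 1 and KO 2. The mean was 291 ± 71.7 CPM in the controls and 188 ± 64.002 CPM in the KO group (SD, n = 2 each). The log2 fold change was -0.63 ± 0.29 (edgeR, unadjusted p = 0.0598, adjusted p = 0.384), and KO 1 lay only slightly below control 2. The large subunit Rrm1 had 267 and 166 CPM in control libraries against 279 and 148 CPM in KO libraries (-0.019 ± 0.34). Tyms, which makes thymidylate, had 82.9 and 50.5 CPM in control libraries against 83.8 and 50.5 CPM in KO libraries (0.013 ± 0.33), nearly the same pair of values in each genotype. The ratio of Rrm2 to Rrm1 counts was 1.28 and 1.45 in the controls and 0.837 and 0.963 in the KO libraries. The genotypes did not overlap in this ratio, and with 2 libraries against 2 a two-sided exact permutation test cannot go below its value of p = 0.333.

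Because the members shared much of their spread between libraries, each gene was also set against the mean log2 level of the 47 genes in its own library, a comparison chosen after the values were seen. Rrm2 lay 2.42 and 2.27 above that mean in the controls and 1.39 and 1.41 above it in the KO libraries, a difference of -0.94 on the log2 scale. In the edgeR fit, its log2 fold change relative to the mean of the members was -0.95, and it ranged from -1.03 to -0.88 when each library was left out in turn. Prim2, Rfc3 and Rfc4 differed in the other direction, by 0.52, 0.52 and 0.55, and their genotypes did not overlap on this scale. Pcna, Rpa1, Rpa2, Rrm1 and Tyms lay lower relative to the member mean in both KO libraries, with differences of -0.34, -0.47, -0.37, -0.34 and -0.28. On this scale 7 members lay above in both KO libraries (14.9%) and 9 below (19.1%), against 10.9% and 26.8% of tested genes. The members are centred on their own mean and the tested genes as a whole are not. The shares are therefore not like for like, and no conclusion is drawn from them. A ratio to the member mean shows unequal change and not which genes changed.

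Slbp, which binds the stem-loop of replication-dependent histone mRNAs, had 205 and 181 CPM in control libraries against 287 and 185 CPM in KO libraries (0.29 ± 0.26, edgeR adjusted p = 0.700). Chaf1a, the large subunit of the chromatin assembly factor that places histones behind the fork, had 159 and 82.3 CPM in control libraries against 219 and 88.1 CPM in KO libraries (0.35 ± 0.43, edgeR adjusted p = 0.799). In each genotype library 1 was far above library 2, and KO 2 lay beside control 2. Exons of Ubxn6 cover 33.6% of the exon length of Chaf1a. Chaf1b, its partner subunit, had 0.13 ± 0.36. The E-type cyclins, which activate CDK2 at the start of S phase, overlapped between genotypes. Ccne1 had 31.4 and 23.2 CPM in control libraries against 42.9 and 19.5 CPM in KO libraries (0.20 ± 0.40, edgeR adjusted p = 0.897). Ccne2 had 44.6 and 27.3 CPM in control libraries against 46.1 and 32.4 CPM in KO libraries (0.13 ± 0.33, edgeR adjusted p = 0.920). Of these 5 genes 0 were called.

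Levels of different genes were compared per kilobase of annotated exon, since longer transcripts give more reads. On this scale the 6 MCM genes lay close together, from 44.5 (Mcm4) to 86.7 (Mcm3) CPM per kb as means of the 4 libraries. The spread of one MCM gene over libraries, such as 50.9 to 142 CPM per kb for Mcm3, was as wide as the spread among the 6 genes. The ORC genes were more unequal, with Orc3 at 50.6 and the other 5 from 11.6 (Orc1) to 23.9 (Orc6), below all 6 MCM genes. The 4 genes of polymerase alpha-primase had like levels, from 26.4 (Pola2) to 36.2 (Prim1). RFC genes ran from 8.02 (Rfc2) to 33.1 (Rfc1), and RPA genes from 15.6 (Rpa3) to 27.7 (Rpa1). The highest levels per length of the 47 were those of Pcna at 111 and Rrm2 at 109, and the lowest was that of Gins2 at 4.57. The Gins2 value is uncertain, since exons of Gse1 cover 70.7% of its exon length and the strand setting is not stated. Rrm2 exceeded Rrm1 per length in every library, at 156 against 66.7 in control 1 and 106 against 69.7 in KO 1. Exon lengths came from another annotation than the counts, so small differences on this scale are not read.

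**Figure D4:**
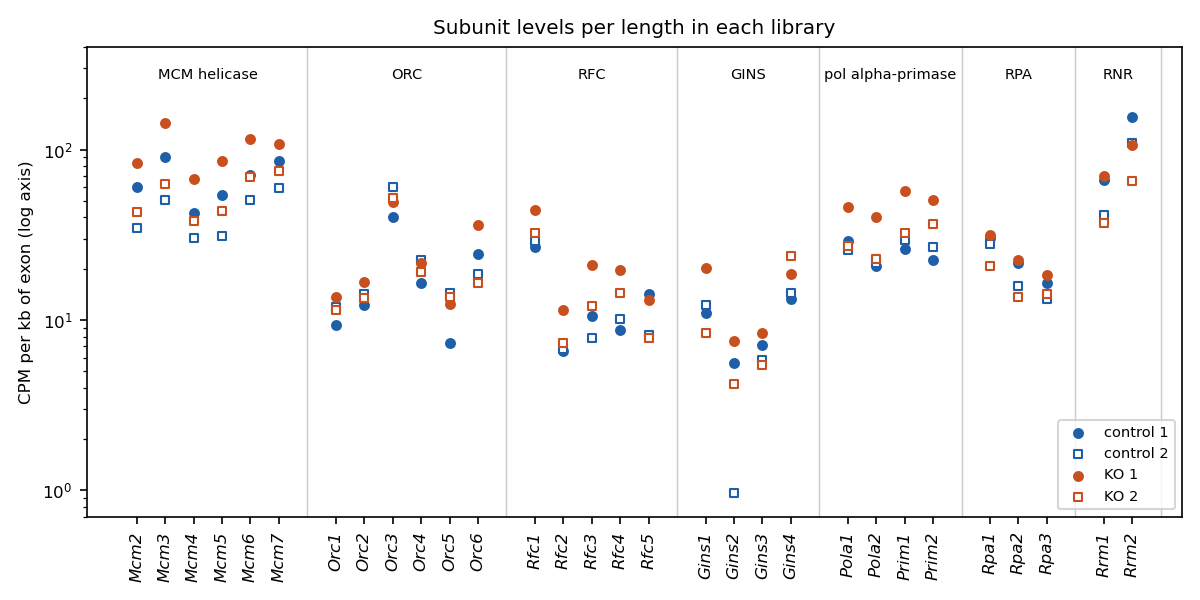
Level per kilobase of annotated exon (CPM per kb, log axis) of the subunits of 7 replication complexes, 1 mark per library; blue marks are controls, orange marks KO libraries, filled circles library 1 and open squares library 2. The MCM subunits lie close together, the ORC subunits are led by Orc3, and Rrm2 lies above Rrm1 in all 4 libraries.

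Promoter sequences were examined because the members varied together from library to library and because E2F factors, known regulators of these genes, recognise a short motif. RefSeq windows on GRCm38.p6, from 250 bases before to 50 bases after the transcript start, were found for 39 of the 47 members. The E2F-type motifs TTTCCCGC, TTTCGCGC, TTTGGCGC and TTTGCCGC, on either strand, occurred in 13 of the 39 members (33.3%), against 3.32% of tested genes and 2.32% of all genes with a window, when the first listed window of each gene was used. The CCAAT box occurred on either strand in 24 of 39 (61.5%), against 37.8% of tested genes. The median number of CpG dinucleotides per window, the sequence that the Cxxc1 protein binds when unmethylated, was 24 in members and 16 in tested genes. A match is a description of letters and not a binding site. The 13 members with an E2F-type match had a median log2 fold change of 0.41 (range 0.015 to 0.85), and the 26 without one in that window had 0.23 (range -0.63 to 0.86). Some genes have several listed windows, and with a match in any of them counted, Lig1 joined the members with an E2F-type match, giving 14 of 39 (35.9%) against 3.76% of tested genes. The medians were then 0.44 with a match and 0.20 without. Whether a match bears on the fold change or on the shared spread between libraries was not tested.

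E2F-type matches were found in 4 of the 5 MCM helicase genes with a window. Mcm2, with the same order of libraries, had none. Matches of this role are shown because its genes shared that order, and a link between match and order was not tested. Each line gives the match in capitals with flanking bases, 5′ to 3′ on the strand of the gene, on GRCm38.p6. In Mcm5 and Mcm6 the match shown overlaps a second match on the other strand, which continues into the bases after it. A motif read on the opposite strand appears as its reverse complement.
Mcm3, chr1:20820278-20820301: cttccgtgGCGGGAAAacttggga
Mcm5, chr8:75109348-75109371: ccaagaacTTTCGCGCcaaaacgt
Mcm6, chr1:128359800-128359823: cgtatgctTTTGGCGCgaaaagtg
Mcm7, chr5:138172033-138172056: ttcgaaccGCGGGAAAcagggtgt
The match of Mcm3 begins at base 20 of the transcript, and those of Mcm5, Mcm6 and Mcm7 begin 153, 110 and 165 bases before its start. Further matches that are not shown begin at base 39 of the Mcm3 transcript and base 17 of the Mcm7 transcript. Mcm6 has another match 47 bases before its start.

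The 250 bases before the start are shown for the 3 members with the smallest p-values among those with a higher point estimate and a window, Rfc4, Prim1 and Rfc3, and for Rrm2, the member with the smallest p-value on the lower side. Capitals mark E2F-type motifs and CCAAT boxes on either strand. Rfc3 holds an E2F-type match next to the start, Prim1 and Rrm2 hold a CCAAT box without an E2F-type match, and these letters do not occur in the Rfc4 window.
Rfc4, chr16:23127731-23127980, minus strand: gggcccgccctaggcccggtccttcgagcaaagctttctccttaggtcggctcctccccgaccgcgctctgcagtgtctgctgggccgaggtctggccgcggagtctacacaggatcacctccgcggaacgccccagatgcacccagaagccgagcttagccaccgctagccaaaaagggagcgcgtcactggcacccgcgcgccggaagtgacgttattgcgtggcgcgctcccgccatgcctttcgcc
Prim1, chr10:128014965-128015214, plus strand: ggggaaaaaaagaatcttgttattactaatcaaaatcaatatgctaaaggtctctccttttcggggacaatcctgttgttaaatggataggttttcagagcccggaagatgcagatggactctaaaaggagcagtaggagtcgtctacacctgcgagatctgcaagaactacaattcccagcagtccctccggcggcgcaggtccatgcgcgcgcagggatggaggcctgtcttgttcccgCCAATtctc
Rfc3, chr5:151651209-151651458, minus strand: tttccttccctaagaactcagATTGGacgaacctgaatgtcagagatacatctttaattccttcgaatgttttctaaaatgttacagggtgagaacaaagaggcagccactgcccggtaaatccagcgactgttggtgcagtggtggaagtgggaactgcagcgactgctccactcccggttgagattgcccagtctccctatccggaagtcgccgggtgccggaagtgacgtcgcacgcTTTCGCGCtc
Rrm2, chr12:24708004-24708253, plus strand: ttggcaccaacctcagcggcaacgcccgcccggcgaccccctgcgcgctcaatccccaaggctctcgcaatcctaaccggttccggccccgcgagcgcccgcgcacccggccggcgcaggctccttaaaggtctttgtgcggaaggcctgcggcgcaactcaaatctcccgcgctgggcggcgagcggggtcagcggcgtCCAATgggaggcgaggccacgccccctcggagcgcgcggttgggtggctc

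The other genes of the replication pathway were examined as a list of 39 further factors. Of the 39, 0 were called. At an unadjusted p below 0.05, 1 was higher (2.56%) and 0 were lower, against 6.97% and 6.91% of tested genes. The median log2 fold change was 0.29, with 30 point estimates above 0 (76.9%, against 47.6% of tested genes). Pole3, a histone-fold subunit of polymerase epsilon, had 21.3 and 28.9 CPM in control libraries against 52.7 and 37.6 CPM in KO libraries (0.84 ± 0.31, edgeR adjusted p = 0.272). Rnaseh2a, the catalytic subunit of RNase H2, had 17.2 and 16.2 CPM in control libraries against 26.5 and 26.9 CPM in KO libraries (0.68 ± 0.31, edgeR adjusted p = 0.369). The fork protection gene Tipin had 38.9 and 26.2 CPM in control libraries against 68.5 and 39.3 CPM in KO libraries (0.73 ± 0.34, edgeR adjusted p = 0.386). Over the 39 genes, both KO libraries lay above both controls in 5 (12.8%), against 22.8% of tested genes. They lay below both in 3 (7.69%), against 24%, and these were Pclaf, Dck and Rnaseh2c. The summed level of the 39 was 3976 and 3202 CPM in control libraries against 5134 and 3040.0 CPM in KO libraries, the same order of libraries as in the members except that KO 2 was the lowest.

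**Figure D5:**
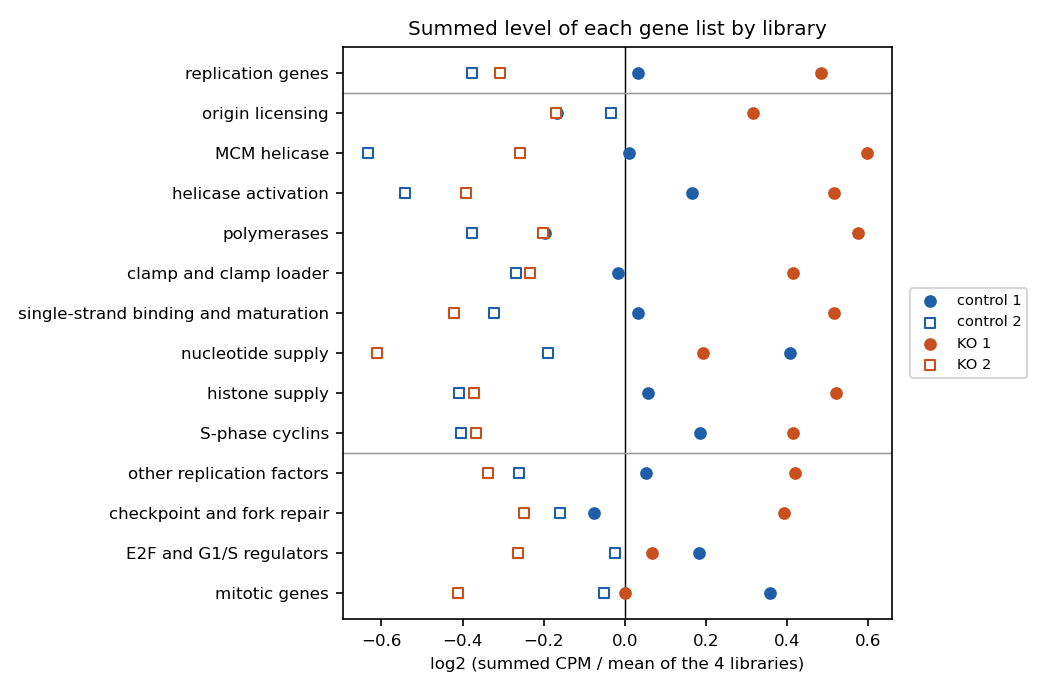
Summed level of each gene list in each library, as log2 of its ratio to the mean of the 4 libraries; blue marks are controls, orange marks KO libraries, filled circles library 1 and open squares library 2. KO 1 is the highest library for the replication genes and for each of their roles but nucleotide supply, whereas control 1 is the highest for nucleotide supply, E2F and G1/S regulators and mitotic genes.

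Regulators of the same pathway had point estimates on both sides of 0. Of 21 E2F and G1/S regulator genes 0 were called by edgeR, with a median log2 fold change of -0.014. At an unadjusted p below 0.05, 2 were higher and 2 lower (9.52% each), against 6.97% and 6.91% of tested genes. DESeq2 called 1 higher and 2 lower, against 2.21% and 2.58% of tested genes. E2f7, an atypical E2F that represses replication genes, had 86.8 and 49.5 CPM in control libraries against 30.6 and 22.2 CPM in KO libraries (-1.37 ± 0.33, edgeR adjusted p = 0.122). E2f2 had 407 and 241 CPM in control libraries against 173 and 124 CPM in KO libraries (-1.12 ± 0.30, edgeR adjusted p = 0.158). E2f6, a repressor that acts with Polycomb proteins, had 15.4 and 18.6 CPM in control libraries against 55.2 and 30.3 CPM in KO libraries (1.33 ± 0.35, edgeR adjusted p = 0.157). In these 3 genes the genotypes did not overlap, and DESeq2 called all 3 (adjusted p = 0.00507, 0.00655 and 0.0231). Over the 21 genes, both KO libraries lay above both controls in 5 (23.8%) and below both in 7 (33.3%). The shares of tested genes were 22.8% and 24%.

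Mitotic genes, which are expressed later in the cell cycle, had point estimates on the other side of 0 from most replication genes. Of 18, 0 were called. At an unadjusted p below 0.05, 0 were higher and 1 was lower (5.56%), against 6.97% and 6.91% of tested genes. All 18 point estimates were below 0, with a median of -0.35, while 47.6% of tested genes were above 0. Nusap1, a spindle protein gene, had 195 and 132 CPM in control libraries against 101.3 and 93.5 CPM in KO libraries (-0.75 ± 0.25, edgeR adjusted p = 0.240). Cenpf had -0.53 ± 0.25 and Ccnb2 -0.41 ± 0.22, with adjusted p-values of 0.389 and 0.460 in edgeR's test. The summed level of the 18 was 7007 and 5273 CPM in control libraries against 5467 and 4112 CPM in KO libraries, so the genotypes overlapped. All 18 were higher in library 1 than in library 2 of both genotypes, as were 34 of the 47 replication genes. The difference between the replication and mitotic lists was not tested.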

How the data were processed

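Read counts per gene symbol were deposited by the authors as one table per library, and per the file headers the reads were aligned with HISAT2. Per the submitters' processing notes the build was mm10 and the tools were HISAT2 2.2.1, featureCounts 2.0.8, cutadapt 4.0 and edgeR 3.36.0. The gene annotation, strand setting and treatment of multiply mapped reads are not stated in the labels or headers.

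The 47 genes and the other lists were chosen with earlier results of these data known. Counts of the 2 control and 2 KO libraries were filtered with filterByExpr (minimum count 10, minimum total 15), scaled by TMM and fitted with edgeR 4.0.16 (quasi-likelihood test, legacy setting, genotype as the only term) in R 4.3.3, and p-values were adjusted by Benjamini-Hochberg over all 20389 tested genes. The fit had 2 residual degrees of freedom and was checked on simulated counts with planted changes. There it called 6% of planted 2-fold changes and 82% of 4-fold changes, and 6.08% of its calls were false. Most 2-fold changes were thus missed in the simulation. DESeq2 1.42.0 was an alternative. Full values are given for members called, members with an unadjusted p below 0.05 and, in each role, the members with the largest fold change and the highest level, and for up to 3 genes per pathway list with the smallest p. Gins4, Prim1, Pola2, Rfc1, Rfc2, Rfc3, Rfc5, Cdc6, Mcm3, Rrm1 and Tyms were added after their values were seen. Exon lengths and overlaps came from GENCODE vM21 on GRCm38, which may differ from the annotation used for counting. Exons of other genes covered over 10% of the exon length in 12 members. Besides members with an overlap given above, these were Orc1 (11.9%), Orc2 (24.0%), Pole2 (14.4%), Slbp (14.4%) and Ccne2 (10.5%). Gene positions and promoters came from RefSeq on GRCm38.p6. One marker list is not reported here.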

Additional observations from a re-analysis of the deposited data

How the results depend on the processing

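Other settings were DESeq2, edgeR's likelihood ratio test, the newer quasi-likelihood setting, RLE size factors, library totals alone, no filter on low counts, a mean of at least 5 CPM, a replicate block, and each library left out in turn. Without a block and with all libraries, each gave 0 called members. The genes called in all numbered 92 in the main setting, 977 with DESeq2, 997 with the likelihood ratio test, 920 without the filter, 231 at 5 CPM and 1599 with the block. Members higher at an unadjusted p below 0.05 numbered 1 at 5 CPM, 4 with library totals and 12 without the filter. The shares of all tested genes in these settings were 8.25%, 7.53% and 5.84%. Members lower numbered 1 with DESeq2, 1 at 5 CPM, 1 with library totals and 1 without the filter. In the main setting 0 members were lower, against 6.91% of all tested genes. The cause was not tested. The members' median stayed between 0.23 and 0.35 in these settings.

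Leaving out each library in turn gave 0 to 1 called members (1 without control 1, Gins2), 0 to 19 higher and 0 to 1 lower at an unadjusted p below 0.05, and a median of -0.036 (without KO 1) to 0.66 (without KO 2). All genes called then numbered 9 without KO 1, 103 without KO 2, 555 without control 1 and 619 without control 2. The lone library of a genotype is assumed in these fits to vary like the other group. Point estimates above 0 numbered 21 of 47 without KO 1, 45 without KO 2, 42 without control 1 and 29 without control 2. The shares of all tested genes above 0 in these settings were 49.4%, 45.9%, 51.02% and 50.7%. Log2 fold changes that changed sign when a library was left out ranged as follows: Ccne1 -0.44 to 0.66, Ccne2 -0.19 to 0.52, Cdc45 -0.74 to 0.49, Cdc6 -0.48 to 0.85, Cdt1 -0.16 to 0.93, Chaf1a -0.41 to 0.90, Chaf1b -0.35 to 0.51, Gins1 -0.44 to 0.79, Gins3 -0.21 to 0.38 and Lig1 -0.17 to 1.04. Further genes that changed sign were Mcm10 -0.38 to 0.82, Mcm2 -0.10 to 0.88, Mcm3 -0.13 to 1.01, Orc3 -0.25 to 0.34, Orc4 -0.15 to 0.30, Orc5 -0.14 to 0.83, Orc6 -0.35 to 0.76, Pcna -0.47 to 0.36, Pold2 -0.16 to 0.71, Pole -0.076 to 0.88 and Pole2 -0.014 to 0.29. The others were Rfc5 -0.48 to 0.35, Rpa1 -0.44 to 0.13, Rpa2 -0.42 to 0.27, Rpa3 -0.036 to 0.30, Rrm1 -0.51 to 0.37, Slbp -0.026 to 0.58 and Tyms -0.36 to 0.41. The estimates nearest 0 also changed sign with other settings. With DESeq2, Orc3 had -0.0084 and Tyms -0.013, and with RLE size factors they had -0.0082 and -0.013. At 5 CPM, Orc3 had -0.056, Orc4 -0.022 and Tyms -0.070. Cdc45 had 0.0069 with the newer setting and 0.0024 without the filter, where Pcna had 0.021 and Rrm1 0.012, and Pcna had 0.0058 with library totals.

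The replicate number was shared across genotypes in the labels, without a statement that it marks a shared animal, litter or day. Deviations of same-numbered libraries from their group means correlated at r = 0.269 over 11018 genes, and with 2 pairs this does not show pairing. With the replicate number as a block, 3 members were called, with 13 higher and 1 lower at an unadjusted p below 0.05, and the median was 0.26. Of all tested genes, 9.93% were higher at that p with the block. The 3 were Gins2 (1.25, edgeR adjusted p = 0.0113), Prim2 (0.81, adjusted p = 0.00899) and Rrm2 (-0.65, adjusted p = 0.0205), against 7.84% of tested genes called. The log2 fold change of Rrm2 relative to the member mean was -1.03 to -0.88 over all settings and kept its sign.

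Lowest member counts of 131 to 428 per library left counting error small beside the spread between libraries, and 2 libraries per genotype limit every comparison made here. In control 1, the shallowest library, 3 counts correspond to 0.252 CPM.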

Other observations

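Checkpoint and fork repair genes, which sense and mend stalled forks, formed a further list of 14 genes, of which edgeR's quasi-likelihood test called 0. At an unadjusted p below 0.05, 3 were higher (21.4%) and 0 were lower, against 6.97% and 6.91% of tested genes. Their median log2 fold change was 0.37, with 10 point estimates above 0 (71.4%, against 47.6% of tested genes). Hus1, a subunit of the checkpoint clamp, had 15.97 and 16.6 CPM in control libraries against 34.5 and 26.7 CPM in KO libraries (0.91 ± 0.31, edgeR adjusted p = 0.251). Chek1, the S-phase checkpoint kinase gene, had 17.6 and 16.4 CPM in control libraries against 46.95 and 23.9 CPM in KO libraries (1.06 ± 0.37, edgeR adjusted p = 0.255). Wee1, whose product inhibits the mitotic kinase CDK1, had 29.8 and 23.1 CPM in control libraries against 65.5 and 30.2 CPM in KO libraries (0.86 ± 0.38, edgeR adjusted p = 0.360). In these 3 genes both KO libraries lay above both controls, as they did in 4 of the 14 (28.6%) and in 22.8% of tested genes. In Chek1 and Wee1 the value of KO 1 was far above that of KO 2.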
